A study of Mus musculus with 9 samples.

Results

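The genes described here were the interferon-linked members of the PARP family and their closest partners, measured by RNA sequencing of mouse kidney. PARP proteins carry ADP-ribosyltransferase domains, which take ADP-ribose from NAD and attach it to proteins or nucleic acids. Parp1, the best known of them, builds long ADP-ribose chains at broken DNA and is present in most cells, whereas several other members transfer a single ADP-ribose unit and are known as interferon-stimulated genes with antiviral functions. Members were chosen by symbol: Parp9, Parp10, Parp11, Parp12, Parp14, Dtx3l and Zc3hav1, with Parp1 as the DNA-repair comparator. They were 8 of 54532 annotated gene identifiers, and all 8 were among the 16646 genes with enough counts to test.

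The study compared WT mice with Trex1-/- mice, which lack a DNA exonuclease and develop cGAS-STING-driven inflammation, and asked what the STING antagonist SN-011 changed. Each group had 3 kidney libraries: WT, Trex1-/- given vehicle in PBS (PBS group below), and Trex1-/- given SN-011 at 10 mg/kg (SN-011 group below). Both Trex1-/- groups carried the same whole-body deletion on a C57BL/6J background, came from heterozygote matings, began injections into the peritoneum at 1 month of age and received them daily for 2 weeks. The WT mice, of the same background, were bought rather than littermates. The methods give their age in weeks at purchase, and no source used here gives their age at sampling or any vehicle treatment. SN-011 was not given to WT mice, so the antagonist was seen only on the Trex1-/- background. These were bulk kidney samples, in which a change in the number of cells of one type and a change in RNA per cell cannot be told apart.

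The libraries held 16118813 to 21928965 gene counts, and each member had between 244 and 2099 counts in every library. Trex1 was at 0 counts in all 9 libraries, WT included, and all 1147 of its exonic bases lie within exons of Atrip, so the deletion could not be read from Trex1 itself. Atrip stood at 14.4 to 16.1 CPM (counts scaled to a common library total) in WT and at 37.1 to 48.5 CPM in Trex1-/- libraries. Y-linked transcripts, a sign of male tissue, were present in WT replicate 3, all 3 PBS libraries and SN-011 replicate 2, at 153 to 188 CPM, and stood at or below 0.377 CPM in the rest. Presence of Y-linked reads was therefore partly mixed with genotype and, among Trex1-/- mice, with SN-011. For the members, values from a fit with a term for Y-linked reads are given below where they shifted. Such values are not given for other genes. Summed kidney epithelium markers were abundant in every library, at 15764 to 19084 CPM.

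All 7 interferon-linked members were higher in the PBS group than in WT, by 2.02-fold (Parp11) to 3.30-fold (Parp14), in a comparison where 1.44% of tested genes were called higher, and Parp1 was not. With SN-011, 6 of the 7 were lower in every library than in any PBS library, as were 8.41% of tested genes, but none of these differences passed the test across all genes. In the SN-011 group, 5 of the 7 were called above WT, where 0.823% of tested genes were, a count that fell to 1 or 0 without WT replicate 1 or 2. The 3 comparisons share libraries in pairs and are not independent of each other. Tests are edgeR's quasi-likelihood F test over 16646 genes with Benjamini-Hochberg adjustment, called at an adjusted p under 0.05. Log2 fold changes carry standard errors (SE) from the same fit.

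**Figure D1:**
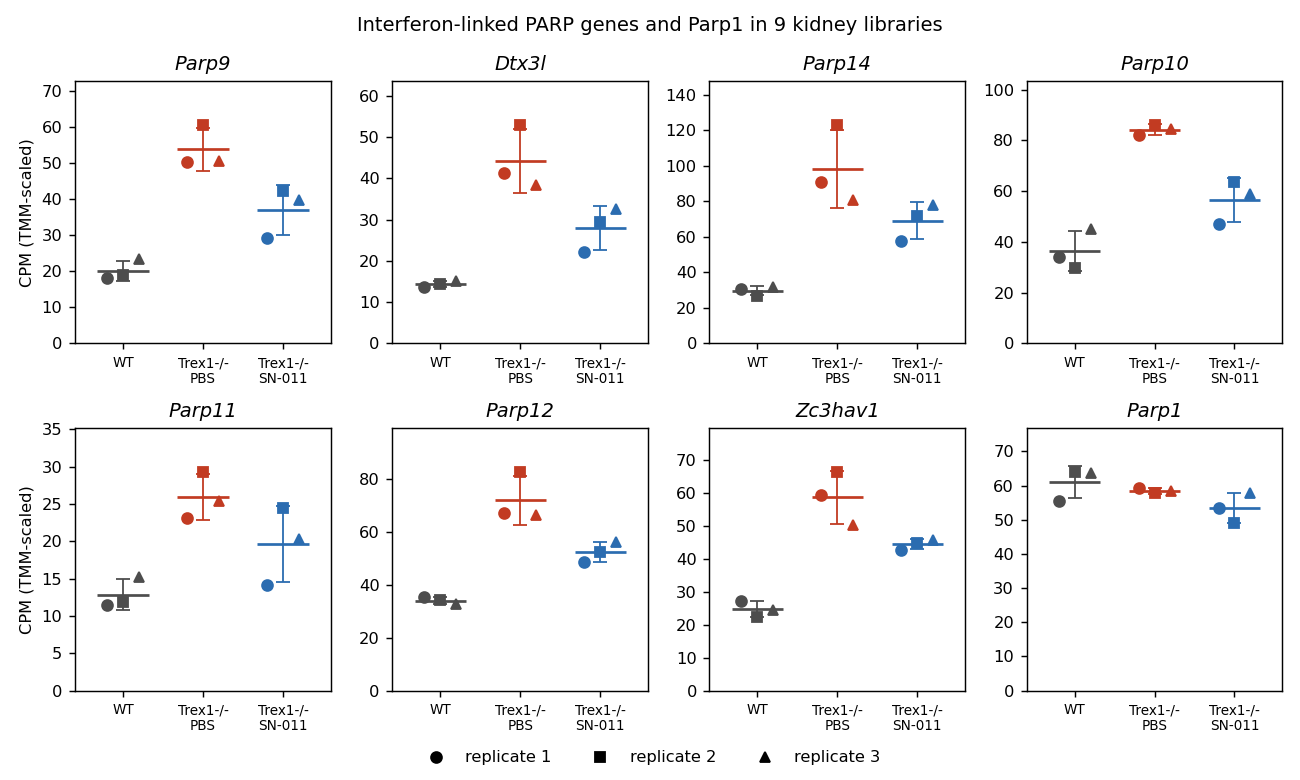
CPM (TMM-scaled) of the 7 interferon-linked genes and Parp1 in each of the 9 kidney libraries, by group. Symbols mark replicates, horizontal lines the mean and bars the SD (n = 3). The PBS libraries sit above every WT library in 7 panels, and the groups overlap in the Parp1 panel.

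Parp9, Dtx3l and Parp14 sit together on chromosome 16. In GRCm38, Parp9 spans chr16:35938470-35972605 on the plus strand and Dtx3l spans chr16:35926511-35939151 on the minus strand, head to head, so that their gene bodies share 682 bases. Parp14 lies 55 kb away at chr16:35832874-35871544 on the minus strand. Exons of Parp9 and Dtx3l share 458 bases on opposite strands, 9.4% of the exonic bases of Parp9 and 8% of those of Dtx3l. The methods name a strand-specific library protocol, but the strand setting of the counting is not given in the sources used here, so it is not known whether reads from that stretch were told apart by strand.

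Parp9 is a macrodomain protein that works in a complex with Dtx3l. It stood at 18.1, 19.1 and 23.3 CPM in WT replicates 1 to 3, at 50.2, 60.6 and 50.5 CPM in the PBS group, and at 29.2, 42.2 and 39.7 CPM in the SN-011 group. The 3 groups did not overlap, with the SN-011 libraries between the others. Parp9 was 2.67-fold higher in the PBS group than in WT (log2 fold change 1.42, SE 0.155, adjusted p = 9.08e-04). All 7 interferon-linked members had every PBS library above every WT library, as did 13.1% of tested genes.

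Dtx3l is an E3 ubiquitin ligase of the Deltex family. Its levels were 13.6, 14.4 and 15.2 CPM in WT, 41.2, 53.0 and 38.4 CPM in the PBS group, and 22.2, 29.4 and 32.5 CPM in the SN-011 group. Again no 2 groups overlapped. The PBS group was 3.07-fold above WT (log2 1.62, SE 0.161, adjusted p = 4.63e-04). Counts of Parp9 per count of Dtx3l ran from 1.33 to 1.53 in WT, from 1.14 to 1.31 in the PBS group and from 1.22 to 1.44 in the SN-011 group. The lowest WT ratio lay above the highest PBS ratio, and no test was made of this ratio, which the shared exons can affect.

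Parp14 is a large macrodomain transferase known for its role in Stat6-driven transcription. It showed the largest fold change of the 7 between the PBS group and WT, and the widest spread among PBS libraries. Levels were 30.4, 26.8 and 31.8 CPM in WT, 90.9, 123 and 80.6 CPM in the PBS group, and 57.6, 71.5 and 77.8 CPM in the SN-011 group. PBS replicate 2 stood well above the other 2 PBS libraries, while the highest SN-011 library came close to the lowest PBS library without reaching it. The difference from WT was 3.30-fold in the PBS group (log2 1.72, SE 0.165, adjusted p = 3.96e-04). Of its 9306 exonic bases, 110 are shared with an unconfirmed transcript, Gm49730, on the same strand.

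Parp10 and Parp11 transfer single ADP-ribose units. Parp10, at chr15:76231174-76243441 on the minus strand, stood at 34.0, 29.9 and 45.3 CPM in WT, at 82.2, 86.2 and 84.5 CPM in the PBS group, and at 46.9, 63.7 and 59.0 CPM in the SN-011 group. The PBS libraries were close together, with an SD of 1.99 CPM against 7.95 CPM in WT. The lowest SN-011 library was barely above the highest WT library. The PBS group was 2.32-fold above WT (log2 1.21, SE 0.154, adjusted p = 0.00237). Parp10 shares 205 exonic bases, 4.8% of its own, with the abundant cytoskeletal gene Plec on the same strand.

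Parp11, at chr6:127446840-127494261 on the plus strand, is linked to control of the type I interferon receptor. It was the least abundant member, at 11.5, 11.8 and 15.2 CPM in WT, 23.1, 29.3 and 25.4 CPM in the PBS group, and 14.2, 24.4 and 20.3 CPM in the SN-011 group. The SN-011 libraries overlapped both other groups. The PBS group was 2.02-fold above WT (log2 1.02, SE 0.193, adjusted p = 0.0252), the weakest call of the 7. It was lost with a term for Y-linked reads in the fit (log2 0.73, adjusted p = 0.0913), and also without WT replicate 1 or 2 or without any one PBS library, where the adjusted p ran from 0.0589 to 0.134. With the same term for Y-linked reads Parp10 stood at 0.97 and Parp9 at 1.22, both still called.

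The remaining pair are CCCH zinc-finger proteins. Parp12 binds RNA and transfers single ADP-ribose units, and Zc3hav1, the zinc-finger antiviral protein, binds viral RNA and has no transferase activity of its own. They are neighbours on chromosome 6, Parp12 at chr6:39086410-39118349 and Zc3hav1 at chr6:38305286-38354603, both on the minus strand and 732 kb apart, and neither shares exonic bases with another gene. Parp12 stood at 35.2, 34.1 and 32.6 CPM in WT, at 67.0, 82.6 and 66.2 CPM in the PBS group, and at 48.7, 52.4 and 56.1 CPM in the SN-011 group. The groups were fully separated, and WT libraries differed by little (SD 1.33 CPM). Parp12 was 2.12-fold higher in the PBS group than in WT (log2 1.08, SE 0.103, adjusted p = 3.96e-04).

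Zc3hav1 gave 27.3, 22.4 and 24.5 CPM in WT, 59.3, 66.4 and 50.3 CPM in the PBS group, and 42.8, 44.9 and 45.8 CPM in the SN-011 group. The SN-011 libraries lay within a narrow band between the other groups. Its PBS level was 2.37-fold that of WT (log2 1.25, SE 0.115, adjusted p = 3.66e-04), the smallest adjusted p of the 7. The 95% intervals of Parp14 (1.36 to 2.09) and Parp12 (0.85 to 1.31) do not meet, but differences between members were not themselves tested.

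Parp1, at chr1:180568924-180601254, stood at 55.6, 64.0 and 63.6 CPM in WT, at 59.4, 57.7 and 58.4 CPM in the PBS group, and at 53.4, 49.0 and 57.7 CPM in the SN-011 group. Its groups overlapped in every comparison. The log2 fold change of the PBS group against WT was -0.06 with a 95% interval of -0.26 to 0.13 (adjusted p = 0.785), which leaves out changes as large as those of the interferon-linked genes. Over those 7, the median log2 fold change was 1.25, against 0.00 over all tested genes. Expressed per Parp1 count of the same library, Parp14 ran from 0.419 to 0.546 in WT, from 1.38 to 2.12 in the PBS group and from 1.08 to 1.46 in the SN-011 group.

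**Figure D2:**
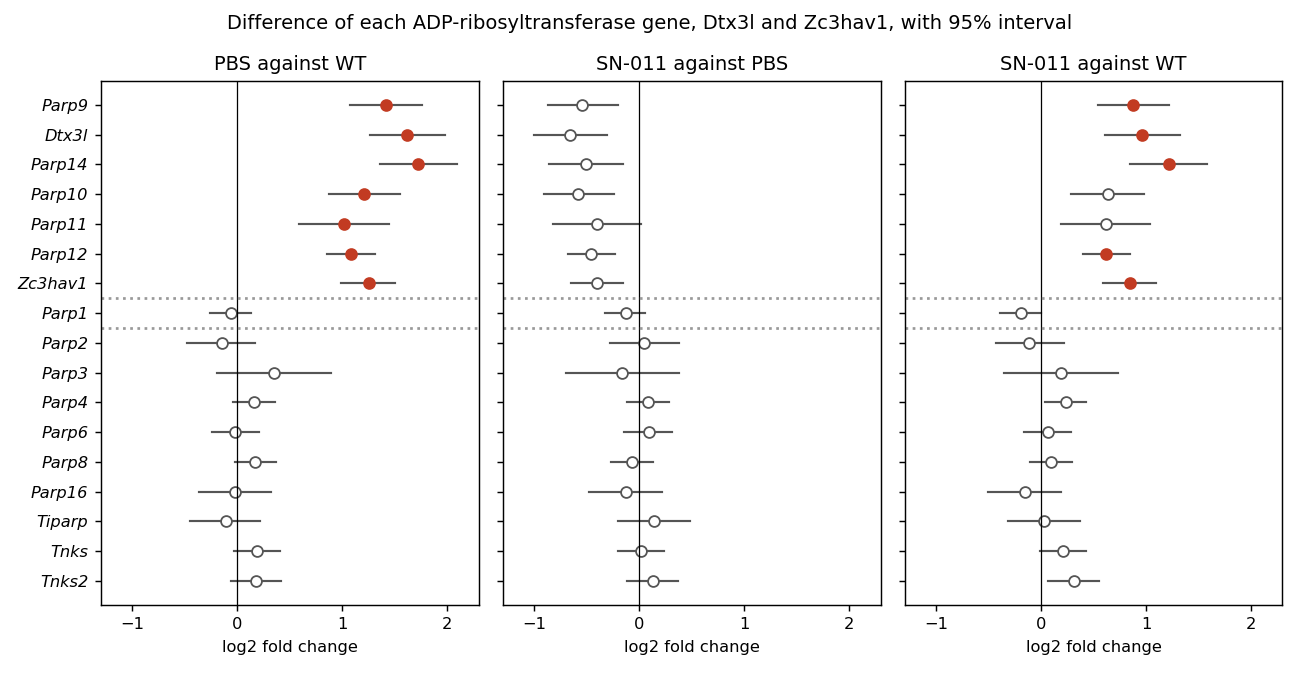
Log2 fold change (point) with its 95% interval (line) for the 7 interferon-linked genes, Parp1 between the dotted lines and 9 other ADP-ribosyltransferase genes, in 3 comparisons. Filled points passed an adjusted p under 0.05: 7 for the PBS group against WT, 0 for SN-011 against PBS and 5 for SN-011 against WT.

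Comparing the SN-011 group with the PBS group asks what the STING antagonist did to these genes. Every one of the 7 had a lower mean with SN-011, with log2 fold changes from -0.66 (Dtx3l) to -0.40 (Parp11 and Zc3hav1) and a median of -0.51, against -0.01 over all tested genes. Parp11 was the one member whose SN-011 and PBS libraries overlapped. None of the 7 was called, and 0% of all tested genes were: 6 of the 7 had an unadjusted p under 0.05, as did 1905 of the 16646 genes, and the smallest adjusted p of any gene was 0.147.

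The values closest to the threshold were those of Parp12 and Dtx3l. On the log2 scale Parp12 stood at -0.46 against PBS (adjusted p = 0.210, SE 0.102) and Dtx3l at -0.66 (adjusted p = 0.230, SE 0.156). Parp10 followed at -0.58 (adjusted p = 0.248), Parp9 at -0.54 (adjusted p = 0.258), Zc3hav1 at -0.40 (adjusted p = 0.263) and Parp14 at -0.51 (adjusted p = 0.289). Parp11, where a 95% interval of -0.82 to 0.02 crossed zero, had an adjusted p of 0.466. Parp1 gave -0.13 (95% interval -0.33 to 0.06, adjusted p = 0.599). With a term for Y-linked reads the log2 fold changes of Parp11, Parp10 and Parp9 came to -0.12, -0.33 and -0.34, with none of the 7 called. These calls depended on the tool and filter: Dtx3l passed with edgeR's exact test (adjusted p = 0.0437), with DESeq2 (0.0247, together with Parp12 at 0.0294) and without a filter on low counts (0.0296, together with Parp10 at 0.0469). Over all genes, those fits called 127, 183 and 127 genes.

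Against WT, all 7 had a higher mean in the SN-011 group, 5 of them called, where 0.823% of tested genes were called higher, and its libraries were all above the WT libraries for 6 of the 7, against 11.8% of tested genes. Parp14 was 2.32-fold higher (log2 1.22, SE 0.163, adjusted p = 0.00908). Dtx3l was 1.95-fold higher (adjusted p = 0.0216), Parp9 1.84-fold (adjusted p = 0.0268), Zc3hav1 1.80-fold (adjusted p = 0.00928) and Parp12 1.54-fold (adjusted p = 0.0209). Parp10 missed the threshold at a log2 fold change of 0.64 (95% interval 0.29 to 0.98, adjusted p = 0.0793), and so did Parp11 at 0.62 (0.19 to 1.04, adjusted p = 0.143). With a term for Y-linked reads both were called, at 0.65 (adjusted p = 0.00999) and 0.61 (adjusted p = 0.0439). Parp1 was at -0.19 (-0.39 to 0.00, adjusted p = 0.278). The count of 5 fell to 1 without WT replicate 1 and to 0 without WT replicate 2, where calls over all genes fell from 213 to 38 and 48. The log2 fold changes moved little in those fits, for Parp14 from 1.22 to 1.23 and 1.15 and for Dtx3l from 0.96 to 0.93 and 0.96. Without WT replicate 3 the count stayed at 5, but Parp10 gained a call (adjusted p = 0.0197) and Parp12 lost it (adjusted p = 0.0501).

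PBS replicate 2 had the highest level of its group for all 7, and SN-011 replicate 1 had the lowest of its group for all 7, while the other extremes were split among libraries. The summed CPM of the 7 was 172 ± 14.7 in WT, 437 ± 56.0 in the PBS group and 307 ± 39.4 in the SN-011 group (SD, n = 3). The WT library with Y-linked reads was the highest of its group for 5 of the 7. Holding group fixed, the log2 difference of libraries with against those without Y-linked reads was 0.38 for Parp10 (adjusted p = 0.0826), 0.44 for Parp11 (adjusted p = 0.140) and 0.31 for Parp9 (adjusted p = 0.247). No member passed the threshold in this contrast, where 3.65% of tested genes were called. The other 4 members lay between -0.04 and 0.12. This contrast was chosen after the values were seen.

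**Figure D3:**
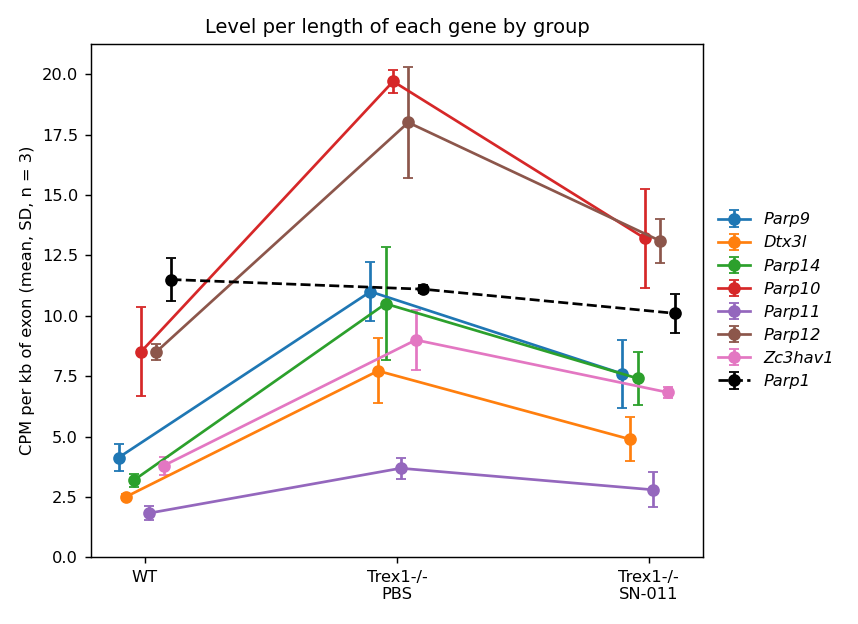
Level per length (CPM per kb of summed exons, mean with SD over 3 libraries) of each gene in the 3 groups, with lines joining the groups of one gene. Parp1, dashed, has the highest mean in WT at 11.5 and stands below Parp10 (19.7) and Parp12 (18.0) in the PBS group.

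Levels of different genes were compared per kb of exon. In WT, Parp1 had the highest level, at 11.5 CPM per kb, followed by Parp10 (8.52) and Parp12 (8.51), then Parp9 (4.13), Zc3hav1 (3.80), Parp14 (3.19), Dtx3l (2.51) and Parp11 (1.83). Neighbours whose WT libraries overlapped were Parp1 with Parp10, Parp10 with Parp12, and Parp9 with Zc3hav1. In the PBS group Parp10 (19.7) and Parp12 (18.0) stood above Parp1 (11.1) in every library, and Parp9 and Parp14 (10.5) overlapped Parp1. In the SN-011 group Parp10 (13.2) and Parp12 (13.1) were above Parp1 (10.1), and the other 5 were below it without overlap, led by Parp9 (7.60) and Parp14 (7.41). With the longest annotated transcript as the length, Parp11 and Dtx3l changed places in WT, and Parp9 and Parp1 in the PBS group.

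RefSeq promoter windows (GRCm38.p6, 250 bases before to 50 after a start) were at hand for 5 of the 8 genes, namely Dtx3l, Parp11 with a pair of starts, Parp12, Zc3hav1 and Parp1. Both strands were searched for GAAANNGAA, the core of the interferon-stimulated response element, and for TTCNNNGAA, the STAT element. Among 32851 mouse windows, 8.56% held the former and 8.3% the latter. The first Parp11 start held both, and they overlap by 3 bases: TTCGATTTC, the response element read on the opposite strand, 43 to 35 bases before the start, and TTCTTGGAA 37 to 29 bases before it. No match was found in the other 5 windows, which says only that those letters are not there. The 60 bases before the start are shown for Parp11, for Parp12, a member without a match, and for the comparator Parp1, 5′ to 3′ on the strand of the gene, with the motif matches in capitals (chr6:127446780-127446839 plus, chr6:39118350-39118409 minus and chr1:180568831-180568890 plus).
Parp11: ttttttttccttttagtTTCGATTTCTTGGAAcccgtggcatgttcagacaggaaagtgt
Parp12: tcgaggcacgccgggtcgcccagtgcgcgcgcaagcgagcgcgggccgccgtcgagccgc
Parp1: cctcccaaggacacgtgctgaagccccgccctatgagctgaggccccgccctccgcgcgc

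No gene tested from the rest of the ADP-ribose system was called, but few genes were. Called higher were 1.44% of tested genes for PBS against WT and 0.823% for SN-011 against WT, so short lists without a call say little. Of 9 other transferases, 3 had every PBS library above every WT library and 1 had every PBS library below. Of the 16646 tested genes, 2174 and 2046 did. None of 9 other ADP-ribosyltransferase genes (Parp2, Parp3, Parp4, Parp6, Parp8, Parp16, Tiparp, Tnks and Tnks2) was called in any of the 3 comparisons, with log2 fold changes from -0.15 to 0.35 and a median of 0.16 between the PBS group and WT. The smallest p-values for PBS against WT were those of Parp8 (log2 0.17, adjusted p = 0.388) and the tankyrase Tnks (0.19, adjusted p = 0.405). For SN-011 against WT they were those of Tnks2 (0.31, adjusted p = 0.183) and Parp4 (0.24, adjusted p = 0.205). Removal of ADP-ribose gave 0 of 8 called in each comparison. For PBS against WT the mono-ADP-ribose hydrolase gene Macrod2 (0.80, 95% interval -0.05 to 1.64, adjusted p = 0.356) and Adprh (-0.22, adjusted p = 0.570) came nearest. For SN-011 against WT, Macrod1 was at -0.44 (adjusted p = 0.140). The interval of Macrod2 is wide enough to hold a change as large as that of the members.

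Genes that supply or use NAD, the substrate of these enzymes, gave 0 of 7 tested, with Nmnat2 too low to test. Over all tested genes, 1.44% were called higher for PBS against WT. Nampt, the rate-limiting enzyme of NAD salvage, was at a log2 fold change of 0.30 (adjusted p = 0.184) and Naprt at -0.23 (adjusted p = 0.323). The partners of Parp1 in break repair gave 0 of 7, among them Lig3 (0.19, adjusted p = 0.564) and Aptx (-0.12, adjusted p = 0.681). The paralogs of Dtx3l gave 0 of 4, with Dtx2 at -0.17 (adjusted p = 0.501) and Dtx3 at -0.11 (adjusted p = 0.632) for PBS against WT. Dtx4, named after its values were seen, stood at -0.86 for SN-011 against PBS, with all SN-011 libraries lower (adjusted p = 0.241). Neither these lists nor the NAD genes were called in the other comparisons.

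Trim25, a ubiquitin ligase that acts with Zc3hav1 against viral RNA, was the 1 call among 3 cofactors and paralogs of Zc3hav1. It was 1.59-fold higher in the PBS group than in WT (log2 0.67, SE 0.0939, adjusted p = 0.00414), with -0.32 (adjusted p = 0.278) for SN-011 against PBS and 0.35 (adjusted p = 0.0933) for SN-011 against WT. Khnyn, another Zc3hav1 cofactor, and the paralog Zc3hav1l gave 0.07 and 0.13 in the first comparison (adjusted p = 0.838 for both).

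Transcription factors of the interferon response were also higher in the PBS group than in WT, among them Stat2 (log2 1.44, adjusted p = 3.34e-04) and Irf9 (0.86, adjusted p = 7.84e-04). Irf7, which amplifies type I interferon production, had 3.08 (adjusted p = 2.37e-04) and Irf1 0.87 (adjusted p = 0.00945), while Irf2 stood at 0.14 (adjusted p = 0.662). None of these was called for SN-011 against PBS, where Irf7 had -1.24 (adjusted p = 0.203). Stat2, Irf9 and Irf7 were called higher in the SN-011 group than in WT, with log2 fold changes of 0.92, 0.69 and 1.84.

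Among all other tested genes, the 8 whose log2 CPM over the 9 libraries lay nearest to the mean pattern of the 7 members were Ddx58, Stat2, Slfn2, Gm8210, Gm20559, Gbp7, Spn and Eif2ak2. Likeness was the root-mean-square difference after centring each gene on its mean. It was 0.08 for Ddx58, which encodes the viral RNA sensor RIG-I, 0.09 for Stat2, 0.12 for Slfn2 and 0.13 for the other 5, against a median of 0.60 over all tested genes. The members themselves ranged from 0.07 (Parp9) to 0.20 (Parp14), and Parp1 was at 0.61. Spn is a leukocyte surface protein and Eif2ak2 the RNA-activated kinase PKR. Since the 9 libraries fall into 3 groups, genes that differ between the groups to a similar degree score as alike.

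**Figure D4:**
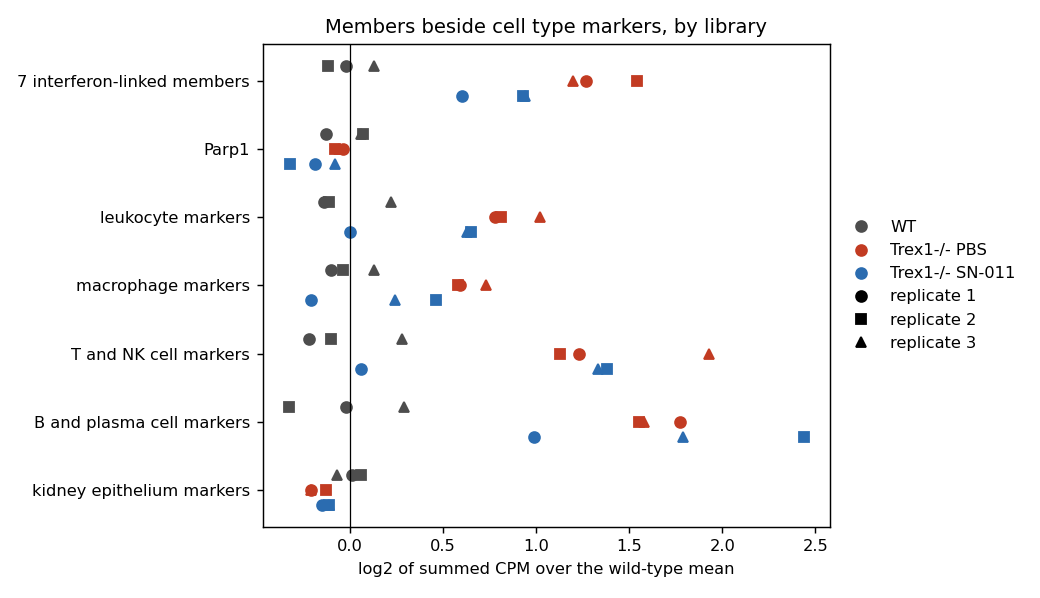
Summed CPM of the 7 members, Parp1 and 5 marker lists in each library, as log2 over the WT mean. Colours mark groups and symbols replicates. SN-011 replicate 1 (blue circles) lies at 0.60 for the members and at 0.99 for B and plasma cell markers. It lies at 0.00, -0.21 and 0.06 for leukocyte, macrophage and T and NK cell markers. SN-011 replicates 2 and 3 lie at 0.93 and 0.94 for the members. They lie at 0.65 and 0.63 for leukocyte markers and at 1.38 and 1.33 for T and NK cell markers.

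Some markers of immune cells were also higher in the PBS group than in WT. The summed CPM of 4 leukocyte markers was 47.2 to 60.8 in WT, 89.6 to 105 in the PBS group and 52.1 to 81.5 in the SN-011 group. The 6 macrophage markers summed to 157 to 184, 251 to 280 and 145 to 232 CPM, the 5 T and NK cell markers to 4.90 to 6.94, 12.6 to 21.8 and 5.95 to 14.9 CPM, and the 4 B and plasma cell markers to 4.65 to 7.12, 17.1 to 19.9 and 11.6 to 31.6 CPM. WT replicate 3, the WT library with Y-linked reads, had the highest WT sum of each of these lists. No marker was at 0 in every library of a group. Every PBS library was above every WT library for all 4 leukocyte, 6 macrophage and 5 T and NK cell markers. This held for 1 of the 2 tested B and plasma cell markers and for 13.1% of tested genes. Called higher in the PBS group than in WT were 1.44% of tested genes. Among them were 2 of the 4 leukocyte markers (Cd52 and Coro1a) and 2 of the 6 macrophage markers (C1qa and C1qb). So were 2 of the 5 T and NK cell markers (Cd3g and Cd4), and Jchain of the 2 tested B and plasma cell markers. These calls were for markers only in part of each list. No marker was called for SN-011 against PBS, and Jchain was the only one called for SN-011 against WT. The B and plasma cell list did not follow the order of the members: Jchain had a mean of 17.2 CPM in the PBS group and 20.4 CPM in the SN-011 group (log2 0.25, adjusted p = 0.810), and Cd79a stood at 0.11 for PBS against WT (adjusted p = 0.921).

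The part of these cells in the members' levels was not tested. In SN-011 replicate 1, the leukocyte sum (52.1 CPM) and the T and NK cell sum (5.95 CPM) lay within the WT range, the macrophage sum (145 CPM) lay below every WT library, and the B and plasma cell sum (11.6 CPM) lay above every WT library. In the same library, the lowest of its group for all 7 members, Parp11 (14.2 CPM) was not above every WT library. The levels of Parp14 (57.6 CPM), Zc3hav1 (42.8 CPM), Parp12 (48.7 CPM), Dtx3l (22.2 CPM), Parp9 (29.2 CPM) and Parp10 (46.9 CPM) were. In SN-011 replicates 2 and 3, the leukocyte (81.5 and 80.8 CPM) and macrophage sums (232 and 200 CPM) lay above every WT library. So did their T and NK cell sums (14.9 and 14.4 CPM). Endothelial markers summed to 271 to 299 CPM in WT, 285 to 298 CPM in the PBS group and 240 to 309 CPM in the SN-011 group, and kidney epithelium markers were lower in all PBS libraries than in any WT library.

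**Figure D5:**
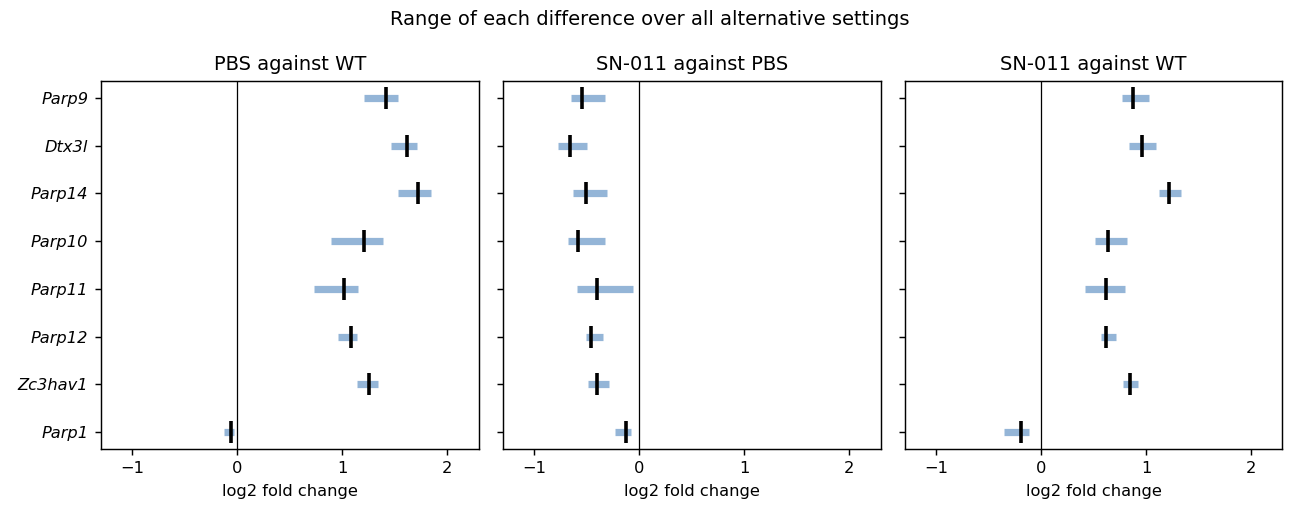
Log2 fold change of each gene as reported (black tick) and its range over all alternative settings and left-out libraries (blue bar), in 3 comparisons. No bar of the 7 interferon-linked genes crosses 0, and the bar of Parp11 reaches -0.06 for SN-011 against PBS.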

How the data were processed

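Kidney poly(A)+ RNA was sequenced in paired ends. Per the study's methods and the labels, the authors trimmed reads with Trimmomatic, aligned them to mm10 with HISAT2, kept uniquely mapped pairs and counted them per gene with featureCounts. The deposited files hold raw counts per Ensembl gene, 1 file per library, with 54532 identifiers. The methods describe strand-specific libraries. The strand setting of the counting and tool versions are not given in the sources used here.

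Libraries were grouped by their labels. Genes were filtered with filterByExpr (minimum count 10, minimum total 15), scaled by TMM and tested with edgeR 4.0.16 (quasi-likelihood F test, R 4.3.3) in one fit of all 9 libraries, with Benjamini-Hochberg adjustment over 16646 genes. CPM used TMM-scaled library sizes. Lengths, positions and symbols came from GENCODE release 21 for mouse (GRCm38), which matched 54495 identifiers, and promoters from RefSeq. The study states 3 per group for the mouse kidneys, but the labels do not tie a library to an animal, so p-values measure the spread between these libraries. The code was tested on simulated data. Alternatives were 2 other scalings, no filter, DESeq2 1.42.0, edgeR's exact test (the study names a negative binomial test from edgeR), a term for Y-linked reads or replicate number, fewer libraries, and leaving out each library.

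The members and the gene lists were chosen with earlier results of these data known. Named genes were all 8 members, every gene of a list called in any comparison or, with none called, the 2 with the smallest p for PBS against WT, and the 8 genes nearest in pattern. Macrod1, Dtx4, Tnks2, Parp4, Irf2, Khnyn, Zc3hav1l and Cd79a fall outside this rule and were named after their values were seen. Values for 1 gene of the interferon factor list are not reported here.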

Additional observations from a re-analysis of the deposited data

How the results depend on the processing

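Over 18 alternatives (19 for SN-011 against WT), no log2 fold change of the 7 interferon-linked genes or of Parp1 changed sign, and 345 of their values for the 7 kept their side of the threshold, with 27 losing it and 13 gaining it. The count of members called for the PBS group against WT stayed at 6 or 7. For SN-011 against PBS it was 0 in the reported fit (0 genes called over all), 2 without a filter on low counts (127 of 30892 genes), 2 with DESeq2's Wald test (183 of 16646) and 1 with edgeR's exact test (127 of 16646), and for the other settings 0. For SN-011 against WT it was 5 in the reported fit (213 genes over all), 3 with only the 6 libraries of the comparison (43 genes) and 0 with only the libraries with Y-linked reads (332 genes), where each of those groups has 1 library and the lone samples are assumed to vary like the PBS libraries. Within libraries without Y-linked reads it was 6 (445 genes), and with a term for Y-linked reads 7 (656 genes). The cause of these shifts was not tested.

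Leaving out each library in turn gave counts of 6 to 7 for PBS against WT, 0 to 0 for SN-011 against PBS and 0 to 6 for SN-011 against WT. Without SN-011 replicate 2, 519 genes were called for SN-011 against PBS, but none of the 7 members.

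The groups share replicate numbers that no label ties to a litter, batch or day. Deviations of same-numbered libraries correlated at r from -0.29 to 0.24 over 9 pairs, and 5 of 9 libraries went best with their own number, so the libraries were not treated as paired. With a replicate block the counts of members called were 7, 0 and 5, as without it.

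With 3 libraries per group, the 95% intervals of the SN-011 against PBS differences were as wide as -0.82 to 0.02 (Parp11).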
